A study of Mus musculus with 4 samples.

Results

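Oxidative phosphorylation is the part of respiration in which complexes I to IV of the inner mitochondrial membrane pass electrons to oxygen and pump protons, and complex V, the ATP synthase, uses the proton gradient to make ATP. Its subunits come from both genomes of the cell: most are nuclear genes read in the cytosol and imported, while the small mitochondrial genome codes for the hydrophobic core subunits of every complex except complex II. The subunits were taken here by gene symbol, as all genes starting with mt-Nd, mt-Co, mt-Atp, mt-Cytb, Ndufa, Ndufb, Ndufc, Ndufs, Ndufv, Uqcr, Atp5, Sdh or Cox4 to Cox8, without the Ndufaf assembly factors, the muscle form Cox6a2 and the symbol ending in -ps. This gave 101 of the 32285 genes in the files, of which 88 are nuclear and 13 mitochondrial. Complexes were assigned by the start of the symbol, so Ndufa4 and Ndufa4l2 were counted with complex I by name only. Complex I thus has 38 nuclear and 7 mitochondrial members, complex II 8 nuclear ones, complex III 8 and 1, complex IV 17 and 3, and complex V 17 and 2. The 8 members of complex II include the 4 Sdhaf genes, which are assembly factors of that complex rather than subunits. In the cells used, 5 members had under 20 UMIs (counted RNA molecules): Cox4i2, Cox7b2, Cox8b, Cox8c and Ndufa4l2.

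The study profiled mononuclear cells of the peripheral blood of the inbred mouse strains BL/6 and SM/J at 12 and 20 months of age, with 10x Genomics 3' droplet RNA sequencing. The labels name no treatment and no altered allele for either strain, and platelets and red cells had been depleted. Each strain and age gave 1 matrix, called a library below. The ages of a strain shared a 10x run, and the strains had separate runs, so a difference of strain and a difference of run cannot be told apart. Every library carried 3 tag oligos, and the cells of 1 tag are called an aliquot, which is not known to be an animal. The files held 2580 to 3551 cells and 14250603 to 30627357 UMIs per library, and 2407 to 3398 cells per library were kept; libraries of different 10x runs shared 1 to 3 cell barcodes and libraries of the same run 0. Cells were grouped by clustering on other genes (0 of the 101 members were among the genes used) and named from markers of 12 cell classes. The comparisons use the 5 classes that had 50 or more cells in each library: B cell-like, T cell-like, NK cell-like, classical monocyte-like and nonclassical monocyte-like cells, the last being the patrolling type of blood monocyte. Levels are UMIs of a gene per 1000000 UMIs of the class in a library (CPM), or percent of the class's UMIs for a sum of genes; in such values a change in 1 gene and a change in the other RNA of the cell cannot be told apart.

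All mitochondrial members lie on the circular mitochondrial genome, chrM in the build GRCm38, and 12 of the 13 are read from the plus strand. mt-Nd6 (chrM:13552-14070) is read from the minus strand. Some of these genes overlap, so that UMIs of an overlap cannot be given to 1 gene alone, and the shared letters are shown here in capitals. The end of mt-Atp8 (chrM:7766-7969), 1 of the membrane subunits of ATP synthase, holds the start of mt-Atp6 (chrM:7927-8607), its proton channel subunit, over 43 bases or 21.1% of the length of mt-Atp8. The frames of mt-Nd4l (chrM:9877-10173) and mt-Nd4 (chrM:10167-11544), both membrane subunits of complex I, share 7 bases.
mt-Atp8 and mt-Atp6, chrM:7912-7984, plus strand: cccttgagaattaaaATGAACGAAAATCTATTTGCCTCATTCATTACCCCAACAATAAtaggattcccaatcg
mt-Nd4l and mt-Nd4, chrM:10152-10188, plus strand: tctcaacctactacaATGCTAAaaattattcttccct

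The nuclear members have promoters of their own, and 4 of them are shown, from the members with the largest differences between the monocyte classes and the abundant Cox8a, which the results below describe. Promoters were found in RefSeq (GRCm38.p6) for 73 of the 88 nuclear members, 72 of them by symbol, as windows of 300 bases from 250 before to 50 after the start of the gene. The 3 motifs of factors known for nuclear genes of respiration were searched on both strands, with overlaps allowed: the NRF1 motif, CCGGAAG for the ETS family, and GCCATNTTG for YY1. The NRF1 motif was in 24.7% of the members' windows and in 4.78% of all 27025 promoter windows. The ETS motif was in 26% against 9.12%, and the YY1 motif in 15.1% against 2.65%. At least 1 of these motifs was in 41 of the 73 windows. Among the 62 members with a window that were lower in nonclassical than in classical monocyte-like cells, 24.2% held the NRF1 motif, 25.8% the ETS motif and 17.7% the YY1 motif. Of the other 11 members with a window 3, 3 and 0 did, and these 11 include Cox7a1, Cox7b2 and Cox8b, which were not tested. The stretches below end at the base before the start and carry the motif letters in capitals. Sdhd has an NRF1 and an ETS match, Ndufs8 has a YY1 match, and Cox6b2 and Cox8a have no whole motif in the bases shown. In the full windows Cox8a has ETS matches that cross the start or lie after it, and Ndufs8 has one after it.
Sdhd, chr9:50603850-50603948, minus strand: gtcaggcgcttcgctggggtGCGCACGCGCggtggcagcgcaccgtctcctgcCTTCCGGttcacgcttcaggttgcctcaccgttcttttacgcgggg
Ndufs8, chr19:3912775-3912960, minus strand: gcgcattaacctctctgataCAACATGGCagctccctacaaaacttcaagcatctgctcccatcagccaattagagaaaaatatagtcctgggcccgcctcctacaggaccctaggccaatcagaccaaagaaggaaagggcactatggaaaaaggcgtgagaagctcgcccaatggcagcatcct
Cox6b2, chr7:4753095-4753194, minus strand: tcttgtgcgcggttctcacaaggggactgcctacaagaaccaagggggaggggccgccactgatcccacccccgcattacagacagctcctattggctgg
Cox8a, chr19:7217617-7217716, minus strand: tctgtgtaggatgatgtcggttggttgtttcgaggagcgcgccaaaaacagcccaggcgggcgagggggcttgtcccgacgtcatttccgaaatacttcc
A match describes these letters only, and no binding was measured.

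Nuclear and mitochondrial members did not rank the cell classes alike. The nuclear members took the largest share of RNA in NK cell-like cells, at 1.76% ± 0.158 of UMIs (mean ± SD, n = 4 libraries), and in classical monocyte-like cells, at 1.67% ± 0.182. T cell-like cells had 1.23% ± 0.0571, B cell-like cells 1.21% ± 0.276 and nonclassical monocyte-like cells 0.959% ± 0.124. The ranges of NK cell-like (1.57% to 1.94%) and classical monocyte-like cells (1.47% to 1.84%) overlapped, as did those of T cell-like (1.15% to 1.28%) and B cell-like cells (1.01% to 1.60%). The mitochondrial members took the largest share in B cell-like cells, at 5.40% ± 0.397, followed by T cell-like cells at 4.46% ± 0.0823, with no overlap between the libraries of these classes. Classical monocyte-like cells had 3.03% ± 0.327 and NK cell-like cells 2.95% ± 0.0974, which overlapped, and nonclassical monocyte-like cells were lowest at 2.00% ± 0.244.

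Among the 5 classes, the ratio of mitochondrial to nuclear UMIs was higher in the B and T classes than in the others, without overlap of libraries. It was 4.58 ± 0.675 in B cell-like cells and 3.64 ± 0.185 in T cell-like cells, against 2.09 ± 0.12 in nonclassical monocyte-like, 1.82 ± 0.0279 in classical monocyte-like and 1.68 ± 0.112 in NK cell-like cells (SD, n = 4 libraries each). In classical monocyte-like cells the nuclear share ran from 1.47% to 1.84% over the libraries while the ratio stayed between 1.78 and 1.85. In B cell-like cells the ratio was 5.21 in BL/6 at 12 months and 3.64 in SM/J at 20 months. The T class was mixed: its cluster 10, led by Ccl5, had ratios of 2.15 to 2.87 over the libraries. The other T cell-like clusters had 2.94 to 4.52. Cells with more than 10% mitochondrial UMIs had been left out, and the deposited SM/J library of 20 months had the most such cells, at 5.94% against 2.45% to 3.45% in the others. With a limit of 20% or with none the class means of the mitochondrial share kept their order, and a limit of 5% lowered it to 4.16% in B cell-like and 3.92% in T cell-like cells.

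**Figure D1:**
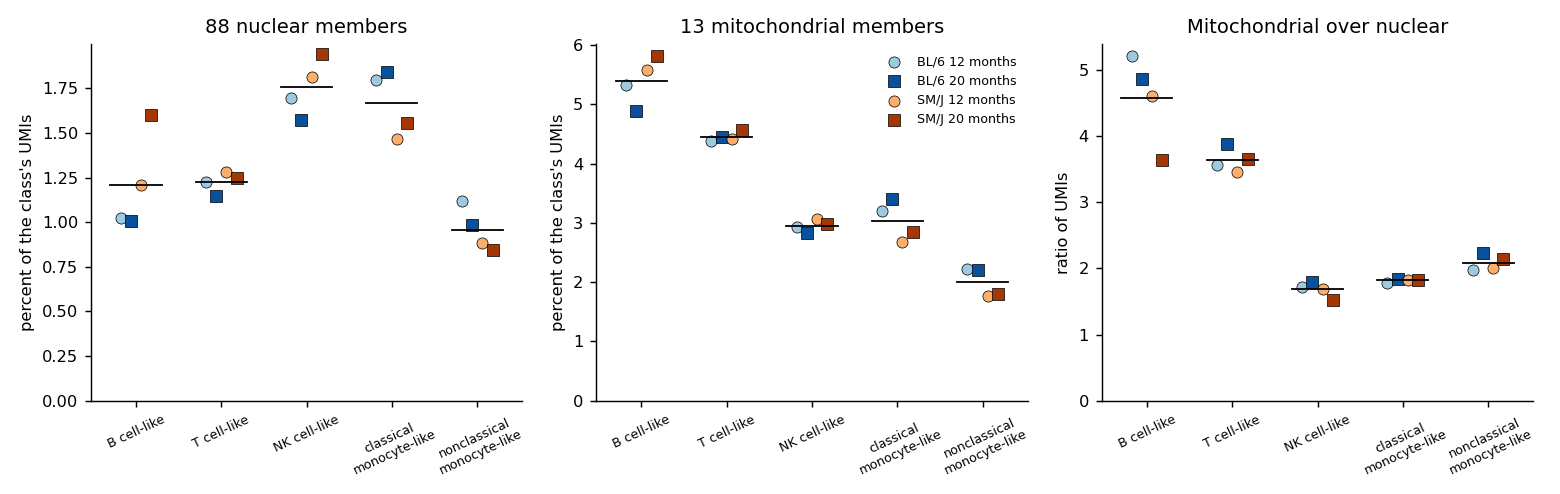
Share of UMIs of nuclear members (left) and mitochondrial members (centre) and their ratio (right) in each class; each point is 1 library and the line is the mean of 4. NK cell-like and classical monocyte-like cells are highest for the nuclear members, B cell-like cells are highest for the mitochondrial members at 4.89% to 5.82%, and nonclassical monocyte-like cells are lowest for the latter.

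Gene by gene, 12 of the 13 mitochondrial members had their highest mean level in B cell-like cells, and mt-Nd6 had it in T cell-like cells. All 13 were lowest in nonclassical monocyte-like cells. Of the 80 nuclear members that reached a mean of 20 CPM in a class, 45 were highest in NK cell-like cells and 29 in classical monocyte-like cells, and 59 were lowest in nonclassical monocyte-like cells. These ranks use total UMIs. The share of all genes highest or lowest in each class was not counted, so the ranks have no background beside them. Class contrasts were tested with edgeR's quasi-likelihood test on the UMIs summed per class and library, with the library as a block and Benjamini-Hochberg adjustment over the 11316 genes tested; a gene was called at an adjusted p under 0.05, and the p-values measure the spread between these 4 libraries. The SE given with an edgeR fold change was worked out from the fold change and the F statistic of that test, which gives no SE itself. All 13 mitochondrial and 82 nuclear members passed the filter on low counts.

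The contrast that involved most members was that of nonclassical against classical monocyte-like cells. Of 82 nuclear members 71 were lower in the nonclassical class, which is 86.6% against 14.5% of all genes tested called lower, and 0 were higher, against 13.2% of all genes. The median log2 fold change of the nuclear members was -0.82, and that of all genes was -0.02. The fall took in most tested members of 4 complexes: 33 of 37 of complex I, 7 of 8 of complex III, 11 of 12 of complex IV and all 17 of complex V. In complex II 3 of 8 were lower, with a median of -0.39 over the 8. These 3 were Sdhd, Sdhb and the assembly factor Sdhaf4. Among mitochondrial members 8 of 13 were lower and 0 higher, with a median of -0.58. The count of nuclear members lower was 43 to 71 when 1 library was left out, with 43 without BL/6 at 20 months. The mitochondrial count was 5 without BL/6 at 12 months, 3 without BL/6 at 20 months, 4 without SM/J at 12 months and 5 without SM/J at 20 months.

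Sdhd (ENSMUSG00000000171, chr9:50596357-50603812 in GRCm38), a membrane anchor subunit of complex II, had 78.4, 77.7, 68.5 and 70.2 CPM in classical monocyte-like cells of BL/6 at 12 and 20 months and SM/J at 12 and 20 months. In nonclassical monocyte-like cells it had 38.5, 28.8, 24.0 and 29.8 CPM in the same order. The classes did not overlap, and the log2 fold change was -1.33 (SE 0.258, adjusted p = 0.000977 by edgeR's quasi-likelihood test). Ndufs8 (ENSMUSG00000059734, chr19:3908863-3912774), an iron-sulfur core subunit of complex I, had 94.8, 101.0, 78.3 and 84.2 CPM in classical and 50.2, 38.3, 32.1 and 34.0 CPM in nonclassical monocyte-like cells. All nonclassical values lay below all classical ones, with a log2 fold change of -1.25 (SE 0.217, adjusted p = 0.000371, edgeR).

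The mitochondrial members were led by mt-Co3, a core subunit of complex IV, which had 6305, 6718, 5289 and 5612 CPM in classical and 3751, 3614, 3070 and 3145 CPM in nonclassical monocyte-like cells. The classes did not overlap (log2 fold change -0.86, SE 0.182, adjusted p = 0.00196, edgeR). mt-Cytb, the cytochrome b of complex III, followed at -0.70 and mt-Atp6 at -0.69, and mt-Co1 (-0.64), mt-Co2 (-0.64), mt-Nd6 (-0.62), mt-Nd3 (-0.58) and mt-Nd4 (-0.51) were also called. The values of mt-Nd2 (-0.40), mt-Nd4l (-0.38), mt-Nd1 (-0.34), mt-Nd5 (-0.32) and mt-Atp8 (-0.26) did not pass the threshold. All 3 mitochondrial members of complex IV were thus lower, and 3 of the 7 of complex I.

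Cox6b2 (ENSMUSG00000051811, chr7:4751792-4753094), the form of cytochrome c oxidase subunit 6B known from testis, had the largest log2 fold change, -3.83 (SE 0.599, adjusted p = 0.00014, edgeR). It rested on few molecules: 29, 77, 4 and 19 UMIs in classical and 0, 7, 3 and 1 UMIs in nonclassical monocyte-like cells, in the library order above. Its common partner Cox6b1 had 312 to 438 CPM in classical and 195 to 293 CPM in nonclassical monocyte-like cells. Cox6b2 was therefore a small part of the 6B transcripts in either class, at 4.35 to 17.8 CPM in the classical and at most 1.45 CPM in the nonclassical class.

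Among the abundant members, Cox8a (ENSMUSG00000035885, chr19:7215153-7217616), the liver form of cytochrome c oxidase subunit 8 and the form made in most tissues, went from 662 to 711 CPM in classical to 290 to 350 CPM in nonclassical monocyte-like cells, a log2 fold change of -1.16. Atp5c1, the gamma subunit of the ATP synthase stalk, fell by 1.18 on the log2 scale, Atp5g1, 1 of the genes of its c-ring, by 1.19, and Uqcrh, the hinge subunit of complex III, by 0.95. The smallest called fall among nuclear members was that of Atp5a1, the alpha subunit of the ATP synthase, at -0.50. Atp5c1, Uqcrh and Atp5a1 were picked after their values were seen.

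The other 11 nuclear members were not called; they are all named here, after their values were seen. Sdha, the flavoprotein subunit of complex II, had 56.3 to 85.2 CPM in classical and 73.1 to 94.4 CPM in nonclassical monocyte-like cells, with a log2 fold change of 0.16 (adjusted p = 0.422, edgeR). Ndufs1, the largest core subunit of complex I, was at 0.22 and the assembly factor Sdhaf1 at 0.27, and these 3 were the only nuclear members with a positive value. The others were Sdhaf2 (-0.09), Ndufs4 (-0.26), Uqcrc2 (-0.32), Sdhc (-0.34), Ndufa11 (-0.37), Sdhaf3 (-0.44), Ndufv2 (-0.46) and Cox5a (-0.69). Members of complex II thus differed among themselves, since Sdhd and Sdhb (-0.72) fell while the values of Sdha and Sdhc missed the threshold.

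**Figure D2:**
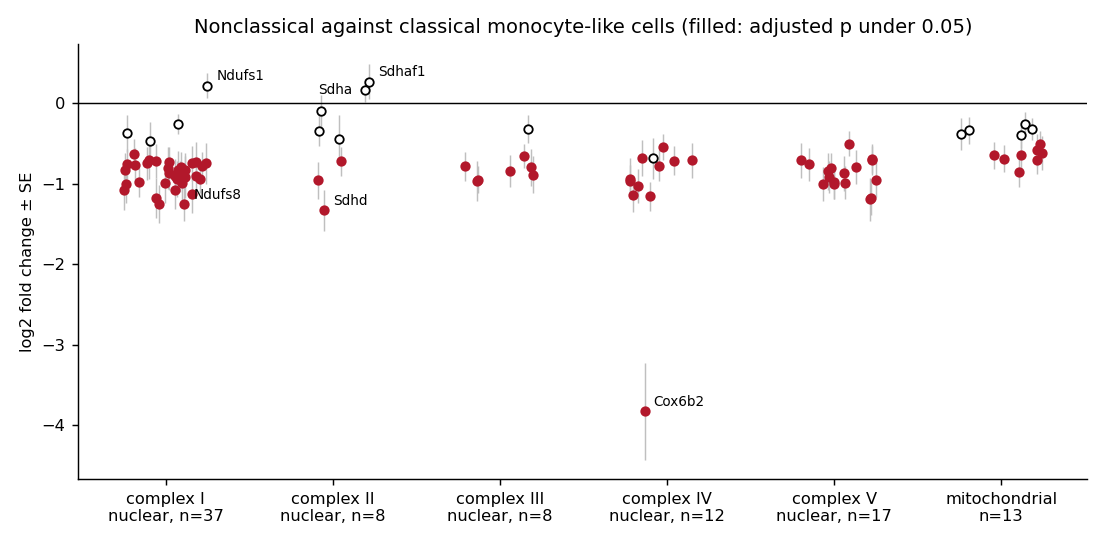
Log2 fold change of each tested member between nonclassical and classical monocyte-like cells with its SE, by complex; filled points had an adjusted p under 0.05 (edgeR). Of 82 nuclear members 71 are filled and below 0; Sdha, Ndufs1 and Sdhaf1 are above 0 and open, and Cox6b2 lies at -3.83.

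Other genes moved in the same monocyte contrast. Of 81 cytosolic ribosomal protein genes tested 65 were lower in nonclassical monocyte-like cells, with a median log2 fold change of -0.73, close to that of the nuclear members. Across genes, which are not independent replicates, the fold change had a Spearman correlation of 0.28 with transcript length over 11304 tested genes and of 0.32 over the 82 nuclear members. The longest transcript of Sdha has 2900 bases and that of Sdhd 1231 bases. The nonclassical class also had 55.4 to 2282 CPM of 7 erythroid markers and 214 to 1009 CPM of 8 B cell markers in sum, against 68.9 to 169 and 207 to 329 CPM in the classical class, with none of these markers at 0 in either. Each strain supplied both classes from clusters mostly of its own. The part of length and of these markers in the result was not tested. Within the BL/6 run 73 nuclear members were lower and within the SM/J run 48, with 8 mitochondrial members lower in each. How many of all genes were called within each run is not given. The difference of this contrast between the strains passed an adjusted p of 0.05 for 0 of 82 nuclear and 0 of 13 mitochondrial members (edgeR, 0.0707% of all genes). An unadjusted p under 0.05 was seen for 2 and 1 of them, and for 552 of all 11316 genes. DESeq2 was not run on that difference.

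Lists of neighbouring pathways moved less uniformly in the monocytes, and are read beside the 14.5% of all genes lower and 13.2% higher; the counts lower of assembly factors and glycolysis are near that background. Of 27 genes of mitochondrial import and inner membrane carriers 14 were lower and 0 higher, with the largest fall in Slc25a4 (log2 fold change -2.51), an exchanger of ADP and ATP. Of 17 genes of the tricarboxylic acid cycle, which feeds the complexes with electrons, 5 were lower and 1 higher, led by Fh1 (-1.99) and Idh2 (-1.64). Of 39 assembly factors 6 were lower and 1 higher, with Foxred1 at -1.11 and Surf1 at -1.07. Glycolysis had 3 lower and 1 higher of 18, with Eno3, which was also 1 of the markers that named the class, at 4.64 and Ldhb at -2.89, and mitochondrial gene expression had 2 lower and 1 higher of 29. Among 13 transcription regulators 4 were higher and 1 lower, with Pparg at 4.35 and Myc at -1.44. These lists were described by counts and were not tested as sets.

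Against T cell-like cells, the classical monocyte-like class had 24 nuclear members higher, or 29.3%, beside 28.1% of all genes tested, so that this count is near the background. Only 2 were lower, beside 27.5% of all genes, and the median of the nuclear members was 0.35 against -0.02 for all genes. With total UMIs in place of TMM factors the count higher was 42, within the BL/6 run it was 61 and within the SM/J run 5. These 3 counts have no background beside them, since the share of all genes called in those fits is not given. By complex, 5 of 8 members of complex III were higher, 6 of 12 of complex IV, 3 of 8 of complex II, 7 of 37 of complex I and 3 of 17 of complex V. For the difference of this contrast between strains 0 of 82 passed an adjusted p of 0.05 (edgeR, 0.548% of all genes). Of the 82, 36 had an unadjusted p under 0.05, with a median difference of -0.54 for SM/J minus BL/6. Of the mitochondrial members 0 of 13 passed and 7 had an unadjusted p under 0.05, with a median difference of -0.44. Among all 11316 genes tested, 1389 had an unadjusted p under 0.05, with a median difference of 0.019. Ndufb8 (ENSMUSG00000025204, chr19:44548572-44555440), an accessory subunit of the membrane arm of complex I, had 208, 215, 167 and 167 CPM in classical monocyte-like and 76.4, 61.7, 75.8 and 86.0 CPM in T cell-like cells of the 4 libraries. Its log2 fold change was 1.24 (SE 0.201, adjusted p = 3.87e-05, edgeR), without overlap. Sdhd was at 1.20 and Cox6b2 at 2.51, the latter with 4, 2, 5 and 4 UMIs in T cell-like cells. The assembly factor Sdhaf3 (-0.91) and Ndufa5 (-0.46), an accessory subunit of complex I, were lower.

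The mitochondrial members went the other way in that contrast. They were lower in classical monocyte-like than in T cell-like cells for 11 of 13, with a median of -0.76 and 0 higher. The largest fall was that of mt-Nd6 (log2 fold change -1.74, SE 0.201, adjusted p = 7.11e-07, edgeR), the only minus-strand gene, with 27.5, 23.9, 13.1 and 24.3 CPM in classical monocyte-like and 70.3, 63.4, 63.0 and 92.1 CPM in T cell-like cells. The SM/J values of mt-Nd6 in the classical class rest on few molecules, since that class held 919818 and 1068500 UMIs in all at 12 and 20 months. mt-Nd2 followed at -1.20, and mt-Nd4 (-0.38) and mt-Co1 (-0.36) did not pass the threshold. Among nuclear genes of mitochondrial gene expression 10 of 29 were lower and 1 higher, not far from the 27.5% and below the 28.1% of all genes, with Polg2, an accessory subunit of the mitochondrial DNA polymerase, at -2.43 and the transcription factor Tfb2m at -1.38. Of 18 genes of glycolysis 11 were higher, with Hk2 at 3.85 and Hk3 at 3.44, the first enzymes of that pathway.

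NK cells are innate lymphocytes, and they were set against T cell-like cells. All 13 mitochondrial members were lower in NK cell-like cells, beside 9.23% of all genes tested, with log2 fold changes from -0.61 for mt-Atp8 to -1.05 for mt-Nd4l. mt-Co1, the catalytic core of complex IV, had 4311, 3475, 3906 and 3899 CPM in NK cell-like and 6393, 6117, 5336 and 5383 CPM in T cell-like cells, without overlap (log2 fold change -0.90, SE 0.169, adjusted p = 0.00102, edgeR). Only 3 nuclear members were higher and 1 lower, beside 7.54% of all genes higher, and the median was 0.17. This count depended on the scaling: with total UMIs in place of TMM factors 32 nuclear members were higher while the median of all genes went from -0.07 to 0.23. Within the BL/6 run 14 were higher. For both fits the share of all genes called is not given. NK cell-like cells were few, at 53 to 100 per library. The summed levels above and all CPM values use total UMIs, while the fold changes use TMM factors. In this contrast the fold change of mt-Co1 thus lies further below 0 than the ratios of its CPM values in the libraries.

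The nuclear members called higher in NK cell-like cells were Ndufb7, Cox5b and Cox8a. Ndufb7 (ENSMUSG00000033938, chr8:83566671-83571626), an accessory subunit of complex I, had 272, 269, 308 and 322 CPM in NK cell-like and 142, 114, 127 and 147 CPM in T cell-like cells, with a log2 fold change of 0.82 (SE 0.197, adjusted p = 0.00683, edgeR). The log2 ratios of its CPM + 1, which use total UMIs, were larger, at 0.936 to 1.27 over the libraries. Cox5b, a subunit of complex IV, was at 0.75 and Cox8a at 0.63. Cox7a2l (ENSMUSG00000024248, chr17:83501918-83517330), known for a role in joining complexes III and IV into supercomplexes, which were not measured here, went the other way. It had 257, 143, 308 and 202 CPM in NK cell-like and 310, 332, 406 and 412 CPM in T cell-like cells. The classes did not overlap, though the nearest values, 308 and 310 CPM, almost met (log2 fold change -1.02, SE 0.239, adjusted p = 0.00566, edgeR). Its relative Cox7a2, the subunit of complex IV itself, had 272 to 339 CPM in NK cell-like and 164 to 185 CPM in T cell-like cells. Of 81 ribosomal protein genes 75 were lower in NK cell-like cells. For the difference between strains 0 of 82 nuclear and 0 of 13 mitochondrial members passed (edgeR, 0.00884% of all genes). An unadjusted p under 0.05 was seen for 1 of each, and for 618 of all 11316 genes.

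Few nuclear members were called between B cell-like and T cell-like cells. Of these 2 were higher and 2 lower in B cell-like cells, beside 15.9% and 14.7% of all genes tested, with a median of 0.01. Ndufs8 was higher (log2 fold change 0.81, SE 0.215, adjusted p = 0.00703, edgeR), at 55.1, 62.1, 68.5 and 90.8 CPM in B cell-like and 39.4, 32.8, 41.4 and 45.6 CPM in T cell-like cells, without overlap. Sdhaf3 was higher at 0.69, and Atp5h (-0.54), the d subunit of the ATP synthase stalk, and Ndufs4 (-0.40), an accessory subunit of complex I needed for its stability, were lower. Within the BL/6 run 18 nuclear members were lower and within the SM/J run 0, and the share of all genes lower in each run is not given. For the difference of the contrast between strains 0 of 82 passed an adjusted p of 0.05 (edgeR, 2.31% of all genes). Of the 82, 31 had an unadjusted p under 0.05, with a median difference of 0.45 for SM/J minus BL/6. Among all 11316 genes tested, 1957 had an unadjusted p under 0.05, with a median difference of 0.046. The mitochondrial members had positive values in 12 of 13, with a median of 0.27, but 0 passed with edgeR. In that fit 2 of them had an unadjusted p under 0.05, beside 4372 of all 11316 genes. DESeq2 called 1 higher and the fit without TMM 1.

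**Figure D3:**
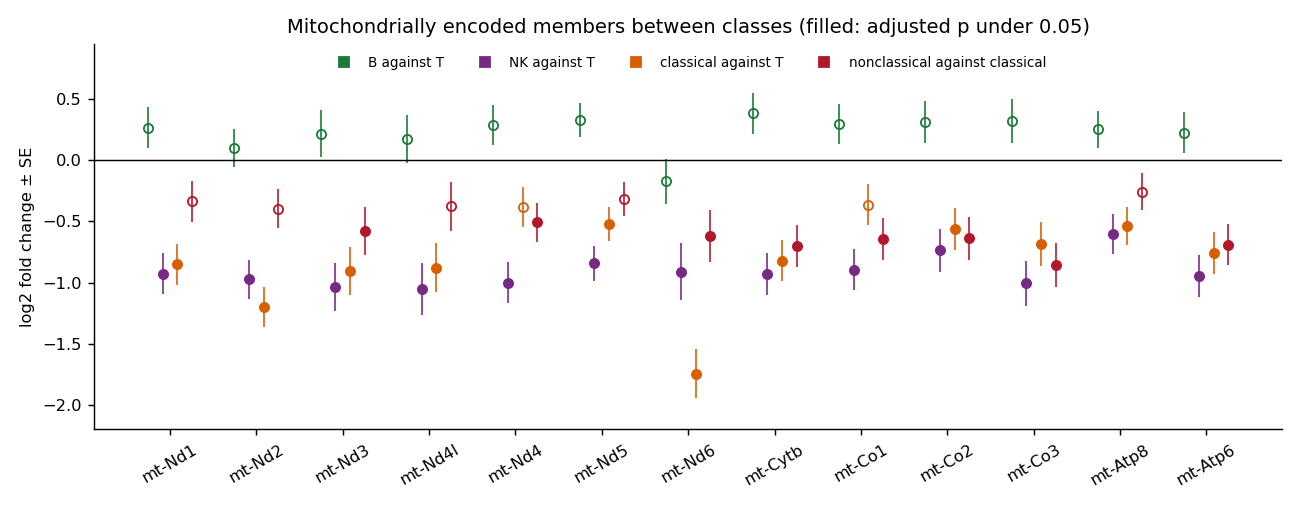
Log2 fold change with SE of the 13 mitochondrial members in the 4 class contrasts; filled points had an adjusted p under 0.05 (edgeR). All 13 are filled and below 0 for NK cell-like against T cell-like cells, and mt-Nd6 reaches -1.74 for classical monocyte-like against T cell-like cells.

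Several subunits have forms made by separate genes, and for subunits 4, 6B and 8 of complex IV and for Ndufa4 a single form carried nearly all molecules. Cox4i1, the common form of subunit 4 of complex IV, had 364 to 874 CPM over the classes and libraries, while the hypoxia-linked form Cox4i2 had 6 UMIs in all cells used. Cox8a had 290 to 1008 CPM, and the muscle form Cox8b had 0 UMIs and the testis form Cox8c 1. Ndufa4 had 178 to 571 CPM and its relative Ndufa4l2 1 UMI. Cox7a1, the heart and muscle form of subunit 7a, was listed with at most 71 UMIs in a class and library, the B cell-like cells of the SM/J mice of 20 months (3.64 CPM). The 3 genes of the ATP synthase c-ring, which code for the same mature protein, were all made: Atp5g2 was the highest of them in every class and library, at 136 to 581 CPM, with Atp5g1 at 42.2 to 221 and Atp5g3 at 84.5 to 226 CPM. The counting is of 3' ends, 1 UMI for 1 captured molecule whatever its length, so levels of different genes are compared without division by length; near-identical copies can share reads.

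Age was compared within a strain and class, with 1 library per age, so that there is no test and intervals cover counting error only; a member counts as past the fold when its ratio of CPM + 1 exceeded 1.5-fold. Among the B cell-like cells, those of SM/J had nuclear members go from 1.21% of UMIs at 12 months to 1.60% at 20 months, a log2 ratio of 0.40 (95% conditional binomial interval 0.390 to 0.413), and the 9 pairs of aliquots gave 0.382 to 0.433. In BL/6 the class had 1.02% and 1.01%, a log2 ratio of -0.023 (interval -0.041 to -0.006), which turned to 0.015 with a mitochondrial limit of 5%. Of 80 nuclear members that passed the filter 12 were past 1.5-fold higher in SM/J, which is 15% beside 10.3% of all genes, and 0 were lower beside 13.3%; 75 of the 80 had a positive ratio. In BL/6 none of 80 was past 1.5-fold, beside 1.39% of all genes higher and 0.892% lower.

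The largest ratio was that of Cox6c (ENSMUSG00000014313, chr15:35925886-35938246), an accessory subunit of complex IV. It had 309 CPM at 12 months and 605 CPM at 20 months in SM/J, 1.95-fold higher (log2 0.97, interval 0.901 to 1.04), beside 256 and 261 CPM in BL/6. Ndufb9 (ENSMUSG00000022354, chr15:58933756-58939488), an accessory subunit of complex I, had 111 and 202 CPM in SM/J (1.80-fold) and 91.0 and 102 CPM in BL/6. Sdhd had 35.9 and 62.1 CPM in SM/J (1.71-fold) and 24.5 and 26.8 CPM in BL/6. The other members past the fold in SM/J were Uqcr11, Atp5g1, Ndufb10, Sdhc, Ndufb8, Ndufa1, Ndufv3, Atp5g2 and Ndufa11, at up to 1.66-fold. In BL/6 the 3 largest log2 ratios, none past the fold, were those of Ndufc2 (-0.36), Ndufv3 (-0.31) and Sdhaf2 (-0.29), and the interval of Sdhaf2 included 0.

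The SM/J difference was seen between clusters and was small within those that both ages shared. In cluster 2 of B cell-like cells, led by Cpne4 and found in SM/J, the nuclear share was 1.13% at 12 months and 1.16% at 20 months, and in cluster 12, led by Fras1 and Lmo7, 1.24% and 1.25%. Cluster 25, led by Zcwpw1, supplied 843 cells to the SM/J library of 20 months and had 1.63%, and its 15 cells from SM/J at 12 months had 1.54%. Cluster 19, of cycling cells led by Pclaf and Mki67, had 2.01% in 69 cells of that library. With the clusters that came to 90% or more from 1 library left out, the log2 ratio of the nuclear members in SM/J was 0.021 instead of 0.402, and 0 members were past 1.5-fold. The median depth per cell moved with the nuclear share in the SM/J library of 20 months, at 3300 UMIs in cluster 2, 7100 in cluster 12, 12480 in cluster 25 and 27580 in cluster 19, and its part in the result was not tested. Scaled by TMM, 36 nuclear members were past 1.5-fold higher and the median of all genes moved from -0.06 to 0.10; with each cell weighted alike 2 were.

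Within that library the clusters could be set side by side for single members. Between the Zcwpw1-led and the Cpne4-led cluster 26 of 79 nuclear members were past 1.5-fold higher, or 32.9% beside 19.2% of all genes, and 1 was lower (1.27% beside 23.9%). Over the Fras1-led cluster 12 of 79 were past 1.5-fold higher, or 15.2%, which is near the 12.5% of all genes, and 0 were lower beside 15%; the median log2 ratio was 0.34 against -0.06 for all genes. Uqcr11, a small subunit of complex III, had 217 CPM in the Zcwpw1-led and 99.2 CPM in the Cpne4-led cluster. In the same order Cox6c had 662 and 335 CPM, and Ndufb10 221 and 107 CPM. Sdha went the other way, at 51.5 and 94.6 CPM. In the cycling cluster 14 of 80 were past 1.5-fold higher than in the Zcwpw1-led cluster, or 17.5%, which is near the 12.5% of all genes. There 1 was lower (beside 4.07%), and the median log2 ratio was 0.35 against 0.08 for all genes. Atp5g1 had 275 CPM in the cycling and 181 CPM in the Zcwpw1-led cluster. Of the 13 mitochondrial members 0 were past 1.5-fold higher in any of these comparisons and 1 was lower in each. Their summed share was 4.96% in the Cpne4-led, 6.11% in the Fras1-led, 5.96% in the Zcwpw1-led and 5.35% in the cycling cluster, so it did not follow the order of the nuclear share.

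**Figure D4:**
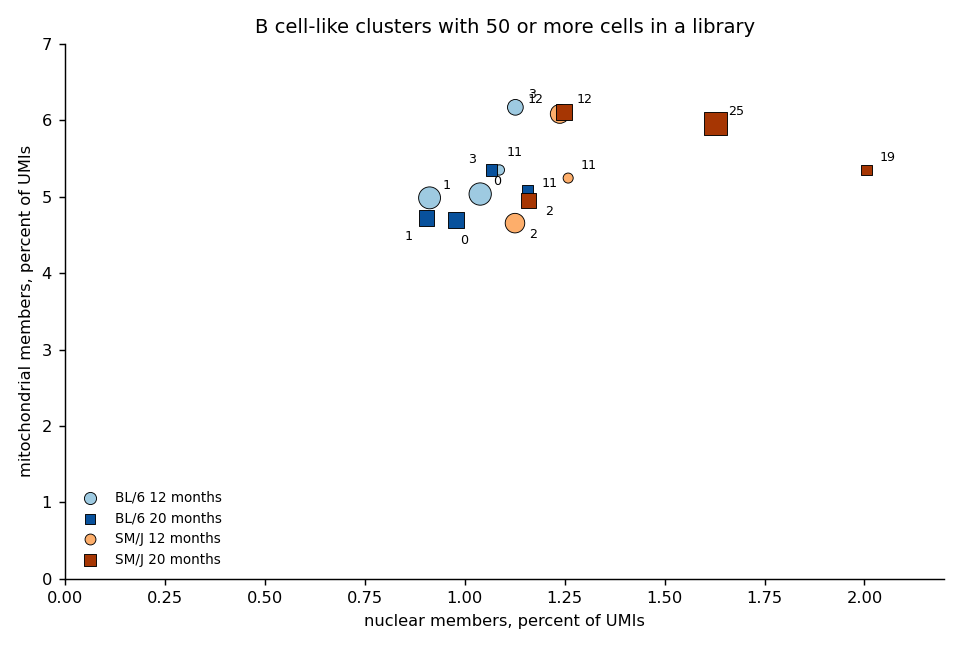
Share of UMIs of nuclear members (horizontal) and mitochondrial members (vertical) in B cell-like clusters, 1 point per cluster and library, numbered by cluster and sized by cells. Clusters 25 and 19 of SM/J at 20 months lie at 1.63% and 2.01% on the nuclear axis, to the right of the other points.

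In the other classes age went with small differences. In T cell-like cells the nuclear share went from 1.23% to 1.15% in BL/6 (log2 -0.098) and from 1.28% to 1.25% in SM/J (-0.033). In classical monocyte-like cells it went from 1.80% to 1.84% in BL/6 (0.033) and from 1.47% to 1.56% in SM/J (0.085). In nonclassical monocyte-like cells it went in BL/6 from 1.12% to 0.985% (log2 -0.186, interval -0.208 to -0.165, aliquot pairs -0.228 to -0.162), with 70 of 79 members negative and 1 past 1.5-fold. That ratio was -0.096 to -0.101 with every other mitochondrial limit and at resolution 2.0. In SM/J the share went from 0.885% to 0.843% (-0.07, aliquot pairs -0.136 to 0.022). Mitochondrial members of the BL/6 B cell-like cells went from 5.33% to 4.89% (log2 -0.124, aliquot pairs -0.185 to -0.063), and those of SM/J from 5.58% to 5.82% (0.061, aliquot pairs -0.001 to 0.106). No member was past 1.5-fold in the same direction in both strains in any of the 4 classes with at least 100 cells per library.

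Single members past 1.5-fold with age outside the B cell-like cells were few and no more frequent than other genes. In BL/6, Sdhb, the iron-sulfur subunit of complex II, was lower in T cell-like cells (68.7 and 45.0 CPM; 1 of 79 members beside 5.17% of all genes lower, with 0 higher beside 2.12%). Ndufa9, an accessory subunit of complex I, was lower in nonclassical monocyte-like cells of BL/6 (32.9 and 21.5 CPM; 1 of 79 beside 3.72%, with 0 higher beside 3.58%), and 0 were past it in classical monocyte-like cells, beside 3.5% higher and 3.39% lower. In SM/J, Ndufa9 was lower (48.4 and 28.3 CPM, 1 of 73 beside 1.44%) and Sdhaf1 higher (35.6 and 55.7 CPM, 1 of 73 beside 3.05%) in T cell-like cells. Ndufb2 (66.3 and 128 CPM) and Ndufb6 (41.3 and 63.6 CPM), accessory subunits of complex I, were higher in classical monocyte-like cells of SM/J, which is 2 of 72 beside 4.97%, with 0 lower beside 6.97%. Ndufs7, a core subunit of complex I, was lower in nonclassical monocyte-like cells of SM/J (57.4 and 36.4 CPM; 1 of 78 beside 3.39%, with 0 higher beside 1.88%). These genes were named after their values were seen, and they rest on 28 to 177 UMIs per library.

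**Figure D5:**
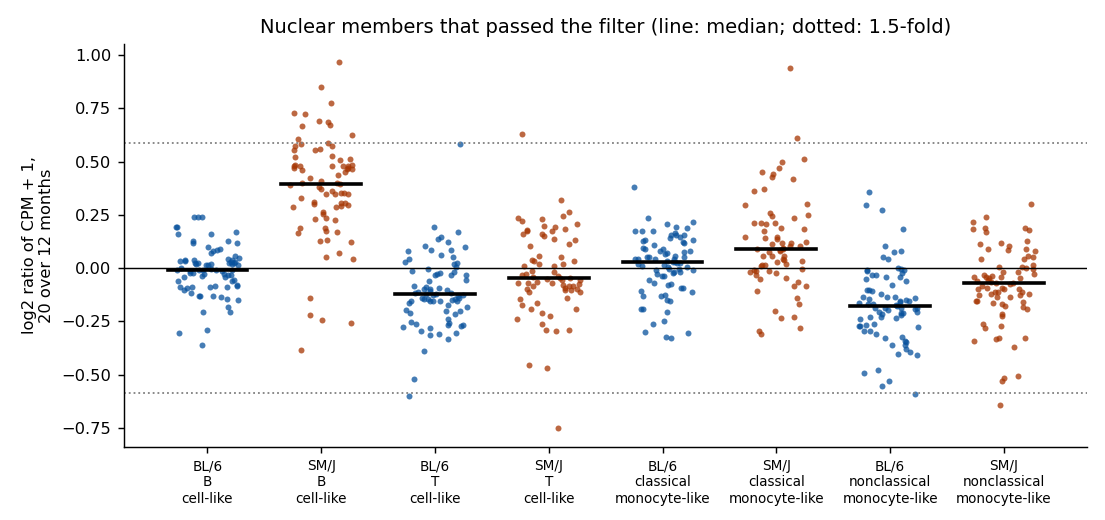
Log2 ratio of CPM + 1 at 20 over 12 months for each nuclear member that passed the filter, by class and strain; each point is 1 gene, the line is their median and dotted lines mark 1.5-fold. B cell-like cells of SM/J have a median of 0.397, and the medians of the other classes and of BL/6 lie between -0.18 and 0.092.

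Between strains the nuclear members differed in opposite ways in B cell-like cells and monocytes. In B cell-like cells they were higher in SM/J at 12 months (log2 ratio 0.244, 95% interval 0.230 to 0.258) and at 20 months (0.669, 0.653 to 0.684). At 20 months 47 of 80 were past 1.5-fold higher, or 58.8% beside 19.5% of all genes, and 0 lower beside 32.4%; at 12 months 2 were higher beside 8.32% and 0 lower beside 13.1%. Without the clusters of 1 library the ratio at 20 months was 0.289 and 5 members were past 1.5-fold in either direction. In classical monocyte-like cells the nuclear share was lower in SM/J at both ages (log2 -0.293 and -0.241), as was the mitochondrial share (-0.256 and -0.257), and in nonclassical monocyte-like cells the nuclear (-0.342 and -0.225) and mitochondrial shares (-0.325 and -0.287) were lower too. The aliquot pairs of these 8 monocyte ratios were negative throughout. In T cell-like cells the nuclear ratios were 0.060 and 0.125, with 1 of 76 past 1.5-fold higher at 12 months beside 4.48% and 2 of 77 at 20 months beside 5.56%; 0 were lower, beside 14.5% and 7.82%. In classical monocyte-like cells 11 of 77 nuclear members were past 1.5-fold lower in SM/J at 12 months (14.3% beside 7.13% of all genes, with 1 higher beside 12%) and 5 of 79 at 20 months (6.33% beside 5.93%, with 2 higher beside 9.8%). In nonclassical monocyte-like cells 9 of 79 were at 12 months (11.4% beside 6.53%, with 2 higher beside 11%) and 4 of 79 at 20 months (5.06% beside 5.97%, with 1 higher beside 7.4%). Among mitochondrial members the ones past 1.5-fold were mt-Nd4l in B cell-like cells at 12 months (291 CPM in BL/6 and 467 in SM/J), mt-Nd1 (2439 and 3741) and mt-Nd3 (1191 and 1861) in B cell-like cells at 20 months, and mt-Co1 in nonclassical monocyte-like cells at 12 months (4049 and 2687).

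No member was past 2-fold in the same direction at both ages in at least 2 classes. The members below were past 1.5-fold in the same direction at both ages in some class, and were chosen after their values were seen. Atp5g1 (ENSMUSG00000006057, chr11:96068852-96075670) had 190 CPM in BL/6 and 92.4 in SM/J in classical monocyte-like cells at 12 months and 220 and 128 at 20 months. In nonclassical monocyte-like cells it had 102 and 51.3 CPM at 12 months and 84.9 and 42.2 at 20 months, so it was lower in SM/J in all 4 pairs. Its sister gene Atp5g2 had 278 and 272 CPM in classical monocyte-like cells at 12 months and 277 and 280 at 20 months. Atp5h was lower in SM/J in classical monocyte-like cells (543 against 346 and 552 against 364 CPM), and Cox5a (238 against 125 and 206 against 115) and Ndufa13 (175 against 108 and 154 against 86.1) in nonclassical ones. Sdhaf1 was higher in SM/J in nonclassical monocyte-like cells (32.9 against 54.5 and 29.6 against 53.8 CPM), and Atp5j (155 against 235 and 146 against 268) in B cell-like cells. Reads of SM/J were set against a reference of another strain, and the part of such differences was not tested.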

How the data were processed

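The authors deposited 4 matrices of raw UMI counts per gene and cell, made with Cell Ranger 7.0.1 per the file headers; mm10 and Seurat 4.3.0 are named in the submitters' processing notes. The authors' cell filter is not given in the sources used here. Cells with at least 500 UMIs, 200 genes and at most 10% mitochondrial UMIs were kept, doublets called by Scrublet (0.775% to 1.34% of filtered cells) were removed, and cells were clustered with scanpy 1.11.5 (2000 variable genes, 30 components, Leiden resolution 1.0) and named from at least 3 detected markers.

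The names used are "-like" because they rest on rebuilt clusters. Counts were summed per class and library and tested with edgeR 4.0.16 (quasi-likelihood, library as a block, TMM factors, filterByExpr, Benjamini-Hochberg), in R 4.3.3, with DESeq2 1.42.0 as an alternative; the script was tested on simulated data. Age and strain have 1 library a group and no test: ratios of CPM + 1, in classes with at least 100 cells and for genes with at least 100 UMIs and a mean of 20 CPM, are given with 95% conditional binomial intervals, which cover counting error only. Depth was 14250603 to 30627357 UMIs per library, with a median of 4060 to 8837 per kept cell.

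Named genes were the 3 nuclear members with the largest called change each way per class contrast, the same way in all 4 libraries; all mitochondrial members; for age the 3 largest changes in B cell-like cells per strain and any past 1.5-fold in both strains; for strain those past 2-fold at both ages in 2 or more classes; the isoform sets; and the 2 largest called changes in each pathway list. Others are said to be picked later. The members, gene lists and rules were chosen with earlier results of these data known. Alternatives were other mitochondrial limits, scaling, filters, pseudocounts, clustering resolution and libraries left out. The fits within each 10x run, the strain difference, gene length and the clusters within SM/J at 20 months were added after seeing the data. Sequences are from RefSeq and the annotation is GENCODE for GRCm38. Counts of the tag oligos were used only to assign aliquots. A result for 1 member is not reported here.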

Additional observations from a re-analysis of the deposited data

Results flagged for a closer look

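The nuclear members of B cell-like cells moved opposite ways with age in the strains: the log2 ratio of 20 over 12 months was -0.023 in BL/6 and 0.402 in SM/J, and all 9 aliquot pairs were below 0 in BL/6 and above 0 in SM/J. The pairs reuse the same aliquots, so they are not independent, and an aliquot is not known to be an animal. The BL/6 value is small and turned to 0.015 with a mitochondrial limit of 5%. The difference was not tested, since each strain and age has 1 library. Without the clusters that came to 90% or more from 1 library the SM/J ratio was 0.021.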

How the results depend on the processing

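Each result was recomputed under the alternatives that apply to it. Of the values for single genes 867 stayed the same, 81 no longer passed, 15 without a test moved and 0 reversed. In class contrasts the same meant the same direction and an adjusted p still under 0.05. For age and strain ratios it meant a value within the counting interval, and the 1.5-fold limit was not checked. Counts of members called between classes stayed within 1.5 times in 214 cases and moved in 46. The share of all genes called or past 1.5-fold under each alternative is not given. The counts of members below therefore have no background beside them. Where a result changed, the cause was not tested unless fewer samples or genes were used. For age and strain, which have 1 library a group: No paired analysis was possible because no replicates exist to pair. The class contrasts compare classes of the same library and had the library as a block; without it each count of members called was the same, except that 12 in place of 11 mitochondrial members were lower in classical monocyte-like than in T cell-like cells.

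Between monocyte classes the 71 lower nuclear members were 68 to 73 under the other alternatives, 48 within SM/J and 43 to 71 with 1 library left out; the lower mitochondrial members were 8, 5 with no filter and 3 to 5 with 1 library left out. For classical monocyte-like over T cell-like cells, the 24 higher nuclear members were 42 with totals, 61 within BL/6, 5 within SM/J and 8 to 31 with 1 library left out, and the 2 lower ones were 1 with totals or no filter, 4 at resolution 2.0 or within SM/J, 0 within BL/6 and 0 to 3. For NK cell-like over T cell-like cells the 3 higher were 6 with DESeq2, 32 with totals, 0 with the members among the variable genes, 14 within BL/6 and 1 to 4, and the 1 lower was 2 with no filter, a 20% or no mitochondrial limit or within BL/6; at a limit of 5% this contrast could not be fitted. For B over T the 2 higher were 1 with no filter and 1 to 2, the 2 lower were 1 with no filter, a 5% limit or doublets kept, 18 within BL/6, 0 within SM/J and 0 to 5, and the 0 mitochondrial ones higher were 1 with DESeq2, totals or BL/6 alone and 4 within SM/J. The mitochondrial share at a 5% limit was 4.16% in B cell-like, 3.92% in T cell-like and 2.69% in NK cell-like cells; with no limit the T class had 4.62%, and at resolution 2.0 the NK class had 2.81%.

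Counts of nuclear members past 1.5-fold were small and unstable. With age in SM/J B cell-like cells the 12 became 36 with TMM, 2 with cells weighted alike and 0 without the clusters of 1 library. In BL/6, B cell-like cells had 1 with no filter instead of 0, T cell-like cells 2 (pseudocount 0.5, no filter, cells alike) or 0 (pseudocount 5, 20% or no limit) instead of 1, classical monocyte-like cells 1 (no filter, cells alike) instead of 0, and nonclassical ones 2 (no filter) or 0 (pseudocount 5, 5% or 20% limit, resolution 2.0) instead of 1. In SM/J, T cell-like cells had 1 (pseudocount 5, TMM, resolution 2.0) or 0 (5% limit) instead of 2, classical monocyte-like cells 7 (no filter) or 1 (pseudocount 5, every other limit, resolution 2.0) instead of 2, and nonclassical ones 2 (no filter, 20% or no limit, resolution 2.0) or 3 (cells alike) instead of 1. Between strains at 12 months, the 2 of B cell-like cells were 1 (pseudocount 5, no limit) or 4 (TMM, 5% limit), the 1 of T cell-like cells 0 (pseudocount 5, 20% or no limit, resolution 2.0) or 3 (no filter), the 12 of classical monocyte-like cells 21 (TMM) and the 11 of nonclassical ones 20 (TMM), 7 (5% or no limit) or 6 (20% limit, resolution 2.0). At 20 months, the 47 of B cell-like cells were 71 (TMM) or 5 (without clusters of 1 library), the 2 of T cell-like cells 1 (pseudocount 5, TMM), 5 (no filter), 8 (5% limit) or 4 (resolution 2.0), the 7 of classical monocyte-like cells 11 (TMM, 20% limit), 15 (5% limit) or 18 (resolution 2.0), and the 5 of nonclassical ones 14 (TMM) or 8 (5% limit, resolution 2.0).

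Among summed ratios 67 stayed within their interval, 122 moved and 11 reversed, all of them near 0. With a 5% limit these were 0.015 for nuclear members with age in BL/6 B cell-like cells, 0.095 for nuclear and -0.008 for mitochondrial members with age in SM/J T cell-like cells, -0.063 for mitochondrial members with age in SM/J nonclassical monocyte-like cells, at 12 months between strains -0.008 for mitochondrial members of B cell-like and -0.009 for nuclear members of T cell-like cells, and -0.055 for mitochondrial members in T cell-like cells at 20 months. Nuclear members with age in SM/J T cell-like cells were 0.001 at a 20% limit and 0.034 at resolution 2.0, and with TMM the mitochondrial members of T cell-like cells were -0.050 with age in SM/J and -0.041 between strains at 20 months.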

Other observations

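Smaller classes also differed in these genes. Plasma cell-like cells, which secrete antibody, were few, at 3 to 47 per library, and had 1.31% to 1.81% of UMIs in nuclear and 3.51% to 4.13% in mitochondrial members. Plasmacytoid dendritic cell-like cells (10 to 45 per library), known as producers of interferon, had 1.35% to 1.67% and 4.80% to 5.32%, so that both shares were above those of T cell-like cells of every library. Basophil-like cells (11 to 57 per library) had 0.997% to 1.36% and 1.83% to 2.35%. These classes were below the minimum of 50 cells in at least 1 library and entered no test.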
